A study of Homo sapiens with 4 samples.

Results

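The claudin family was examined in HML58-3 cells, a derivative of the human colon cancer line HCT116 in which luciferase is driven by a promoter silenced by methylation. On day 1 they received mock treatment or decitabine (DAC), OR-2003 or OR-2100, each drug at 1 μM, and they were collected on day 5. DAC is a cytidine analog that traps and depletes DNA methyltransferase 1, and the study developed OR-2003 and OR-2100 as its prodrugs. The labels and the study's pathway table call the control mock, while the study's figure legends speak of non-treated cells. What the mock treatment held is not given in the sources used here. All groups thus share 1 cell line, and RNA of each was hybridized to 1 Agilent array with a single dye. Without replicates, differences could not be tested and are given as values alone.

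The genes described are *CLDN1*, *CLDN2*, *CLDN3*, *CLDN4*, *CLDN6*, *CLDN7*, *CLDN11*, *CLDN12*, *CLDN15* and *CLDN23*. They were found as the gene probes whose RefSeq accession belongs to these symbols, which gave 10 genes and 11 probes of 25006 named genes and 58201 probes in all. *CLDN12* has 2 probes and the other genes 1 each, and every claudin probe has 1 spot an array. Levels are log2 intensities, scaled so that on each array the 75th percentile over gene probes is 0, and a level of -1 or more is called positive expression. Where 3 values are given for the drugs, their order is DAC, OR-2003, OR-2100. Levels of different probes are not compared with each other, since probes differ in brightness.

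Claudins are small membrane proteins with 4 transmembrane spans that form the strands of tight junctions, the seals between neighbouring epithelial cells. Some of them close the space between cells, and others line pores that let ions or water through. The mix of claudins that a cell makes sets how leaky its layer is. In the normal colon, *CLDN3*, *CLDN4* and *CLDN7* are typical of the epithelium, while *CLDN6* belongs mainly to embryonic tissue and *CLDN11* to myelin and the testis.

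In these arrays the family divided. With all 3 drugs, *CLDN6* and *CLDN11* were higher than with mock, having been not well above background there, and *CLDN2*, *CLDN3*, *CLDN4* and *CLDN7* were lower. *CLDN23* was close to 2-fold higher, *CLDN12* and *CLDN15* differed by less than 2-fold, and *CLDN1* stayed near the background limit. A gene was counted as higher when it was at least 2-fold above mock and at -1 or more with the drug. By this rule 3 of the 10 genes were higher with DAC, 2 with OR-2003 and 3 with OR-2100, beside 5.77%, 5.89% and 5.81% of all named genes. A gene was counted as lower when it was at least 2-fold below mock and at -1 or more on the mock array. Here the count was 4 of 10 with each drug, beside 5.96%, 6.05% and 6.82% of all named genes. With all 3 drugs together, 2 genes were higher and 4 lower, beside 5.27% and 5.21%. These shares are over all 25006 named genes, also those too dim to be counted. Of the named genes, 15977 were well above background on all arrays. Among the 10 claudins only *CLDN1* was under -1 on all arrays, so that the shares are not those of genes of like level. In bulk RNA, fewer cells that express a gene and less RNA in each cell cannot be told apart. The 3 comparisons share the mock array, and the genes were chosen with earlier results of these data known.

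**Figure D1:**
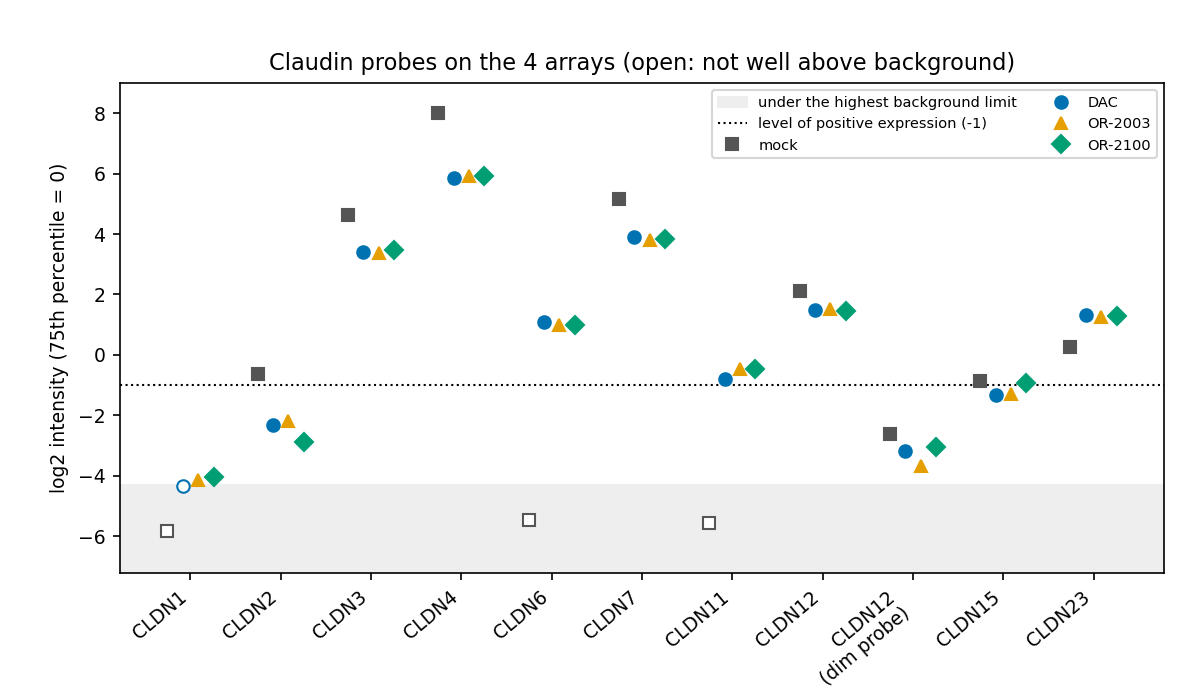
The log2 level of each claudin probe (75th percentile of each array = 0) is plotted for the 4 arrays, 1 point each, with open points for probes not well above background. The drug points of *CLDN6* lie between 0.99 and 1.09 and its mock point at -5.47, while all drug points of *CLDN2*, *CLDN3*, *CLDN4* and *CLDN7* lie under their mock points.

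The promoter windows of 5 of these genes are shown because the drugs act on DNA methylation, which falls on the cytosine of CpG sites. *CLDN6* and *CLDN11* were higher, *CLDN3*, *CLDN4* and *CLDN2* lower. Each window runs from 250 bases before to 50 after the annotated start, 5′ to 3′ on the strand of the gene, in lower case with CpG sites in capitals. The sequences are from RefSeq, build GRCh38.p14. The windows lie at chr16:3018134-3018433 (minus strand) for *CLDN6*, chr3:170418618-170418917 (plus strand) for *CLDN11* and chr7:73770221-73770520 (minus strand) for *CLDN3*. Those of *CLDN4* and *CLDN2* lie at chr7:73830746-73831045 and chrX:106899914-106900213 (both plus strand).
CLDN6: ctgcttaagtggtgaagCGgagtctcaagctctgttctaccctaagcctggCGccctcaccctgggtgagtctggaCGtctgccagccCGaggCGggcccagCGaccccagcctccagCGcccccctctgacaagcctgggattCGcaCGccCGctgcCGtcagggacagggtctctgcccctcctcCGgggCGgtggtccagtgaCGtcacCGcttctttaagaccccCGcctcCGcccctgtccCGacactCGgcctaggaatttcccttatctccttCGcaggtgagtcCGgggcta
CLDN11: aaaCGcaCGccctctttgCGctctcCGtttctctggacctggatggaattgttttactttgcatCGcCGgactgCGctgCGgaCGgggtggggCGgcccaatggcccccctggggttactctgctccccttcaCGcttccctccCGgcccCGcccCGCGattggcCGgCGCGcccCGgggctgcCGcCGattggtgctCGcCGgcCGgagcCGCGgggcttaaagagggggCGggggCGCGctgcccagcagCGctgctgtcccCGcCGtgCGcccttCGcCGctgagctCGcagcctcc
CLDN3: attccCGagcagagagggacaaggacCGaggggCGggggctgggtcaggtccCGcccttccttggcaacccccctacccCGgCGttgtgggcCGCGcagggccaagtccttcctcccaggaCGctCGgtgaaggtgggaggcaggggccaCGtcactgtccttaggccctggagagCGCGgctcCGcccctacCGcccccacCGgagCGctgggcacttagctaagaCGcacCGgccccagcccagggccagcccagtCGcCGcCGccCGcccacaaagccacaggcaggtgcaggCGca
CLDN4: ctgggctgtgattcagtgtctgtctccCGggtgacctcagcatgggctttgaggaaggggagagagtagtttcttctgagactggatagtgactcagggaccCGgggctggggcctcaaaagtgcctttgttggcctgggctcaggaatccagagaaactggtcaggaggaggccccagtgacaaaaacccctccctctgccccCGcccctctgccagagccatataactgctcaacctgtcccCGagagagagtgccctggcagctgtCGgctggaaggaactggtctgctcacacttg
CLDN2: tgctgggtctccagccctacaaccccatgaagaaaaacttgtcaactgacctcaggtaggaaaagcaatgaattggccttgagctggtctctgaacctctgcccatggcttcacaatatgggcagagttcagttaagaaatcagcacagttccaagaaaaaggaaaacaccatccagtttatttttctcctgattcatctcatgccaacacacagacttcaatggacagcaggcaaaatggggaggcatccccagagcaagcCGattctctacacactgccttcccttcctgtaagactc

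Matching windows were found for 9 of the 10 genes. The number of CpG sites was 36 in *CLDN11*, 31 in *CLDN1*, 24 in *CLDN3* and 21 in *CLDN6*. It was 15 in *CLDN12*, 12 in *CLDN15*, 10 in *CLDN7*, 5 in *CLDN4* and 1 in *CLDN2*. The median over 27305 promoter windows was 14, and 12.5% of them held as many as *CLDN11*, 39.5% as many as *CLDN6*, 69.5% as many as *CLDN4* and 95.8% as many as *CLDN2*. The 3 genes whose probes were not well above background with mock (*CLDN1*, *CLDN6* and *CLDN11*) all had more CpG sites than the median window. This was not so for other claudins, since the 8 with a window whose probes were not well above background with mock had between 0 and 12 sites, with 12 in *CLDN10*. Of the genes that were lower, *CLDN2*, *CLDN4* and *CLDN7* had fewer and *CLDN3* more. The E-box CAGGTG, the sequence bound by the SNAI and ZEB repressors, was searched on both strands (CACCTG on the other). It was present once each in *CLDN3* and *CLDN6*, or 22.2% of the claudin windows, beside 20.6% of all windows. Methylation of these windows was not analysed here.

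*CLDN6*, a claudin of embryonic epithelia that is scarce in adult tissue and is reached by antibodies under test against germ cell and ovarian tumors, showed the largest difference of the 10. Its log2 level was -5.47 with mock, against 1.09 with DAC, 0.99 with OR-2003 and 1.00 with OR-2100. These levels come from intensities of 3.43 with mock and 375, 329 and 350.4 with the drugs, in the same order. The probe was not well above background with mock and was positive with each drug, and the 3 drug arrays lay within 0.10 of each other. Where mock gives no signal well above background, only a lower bound of the fold is given, taken against the lowest mock signal that counted as well above background (-4.29). This bound is not strict, since a probe not well above background can lie higher, such as that of *PARD3B* at -4.00 with mock. For *CLDN6* this bound was at least 41.5-fold with DAC, 38.7-fold with OR-2003 and 38.9-fold with OR-2100. The measured log2 differences were 6.56, 6.46 and 6.47. Under normexp, run on the median intensity of the spot and with an added offset of 50 that compresses dim values, they were 2.52, 2.42 and 2.41. How much of this came from the correction and how much from the offset was not tested.

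*CLDN11*, which seals the myelin of oligodendrocytes and the barrier between Sertoli cells, was at -5.54 with mock, and at -0.80, -0.46 and -0.47 with the drugs. The mock value was not well above background, and the 3 drug values were just above the level of positive expression. The fold was at least 11.2 with DAC, 14.2 with OR-2003 and 14.1 with OR-2100. The measured log2 differences of 4.74, 5.08 and 5.07 became 1.17, 1.38 and 1.41 with normexp. *CLDN11* was no longer counted as higher when the arrays were scaled by the bright probes alone, those well above background, under which its levels fell below -1.

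*CLDN23*, an atypical claudin of the intestinal epithelium, was at 0.26 with mock and at 1.33, 1.24 and 1.30 with the drugs. Each array measured it well above background, and the drugs gave 2.11, 1.98 and 2.06-fold higher values. It lay at the threshold, so that it was counted with DAC and OR-2100 and missed the count with OR-2003, although the drug arrays differed by only 0.091. From probes with 10 spots an array, the noise between spots was estimated at the level of each probe, and for a difference of *CLDN23* from mock it was 0.11, 0.10 and 0.10 (1 SD, log2) with the 3 drugs. Its log2 differences of 1.08, 0.98 and 1.04 exceeded this noise on each array, and the step between the drugs did not. Under median scaling and normexp *CLDN23* was counted with no drug, and with all 3 under quantile normalization and under scaling by bright probes. The noise does not include the spread between cultures.

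*CLDN4*, a sealing claudin and receptor of the enterotoxin of Clostridium perfringens, was at 7.99 with mock, and at 5.86, 5.93 and 5.93 with the drugs. The mock array was the highest and the drug arrays lay within 0.071 of each other, less than the noise between spots. *CLDN4* was 4.38, 4.18 and 4.17-fold lower with the drugs, at least 4-fold with each. It did not reach 4-fold with any drug under quantile normalization (log2 differences of -1.75, -1.69 and -1.59) or scaling by bright probes (-1.91, -1.77 and -1.80). Its log2 differences of -2.13, -2.06 and -2.06 had a noise between spots of 0.082, 0.076 and 0.076. No spot on the arrays was saturated.

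*CLDN3*, the other enterotoxin receptor, was at 4.63 with mock and at 3.40, 3.38 and 3.48 with the drugs. It was 2.34, 2.38 and 2.22-fold lower, although under scaling by probes well above background alone its log2 differences were -0.95 with OR-2003 and -0.89 with OR-2100, so that it was counted with DAC only. *CLDN3* and *CLDN4* are neighbours on chromosome 7, with 0 protein-coding genes between them in the RefSeq annotation, and both were lower with each drug. *CLDN7*, which lies along the lateral membrane of intestinal cells and binds EPCAM, was at 5.15 with mock and at 3.89, 3.79 and 3.84 with the drugs. It was 2.40, 2.55 and 2.47-fold lower, and the drug arrays lay within 0.092. For both genes the mock array stood apart and the drug arrays lay close together. *CLDN4* and *CLDN7* were counted as lower with all 3 drugs under every scaling and background correction tried.

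*CLDN2*, which forms a pore for cations and water, was at -0.61 with mock and at -2.30, -2.18 and -2.88 with the drugs. It was above the level of positive expression with mock and under it with each drug, and it remained well above background. The gene was 3.22, 2.97 and 4.80-fold lower. Its log2 differences of -1.69, -1.57 and -2.26 became -0.96, -0.93 and -1.11 with normexp, so that it was counted as lower only with OR-2100 there. It was not counted as lower with any drug when the arrays were scaled by bright probes alone, since its mock level then fell under -1.

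The other 3 genes were counted with no drug. *CLDN12*, which lacks the tail motif by which most claudins bind scaffold proteins, was at 2.10 with mock and at 1.47, 1.53 and 1.46 with the drugs, and was 1.55, 1.49 and 1.56-fold lower. Its dimmer probe was at -2.60 with mock and at -3.18, -3.66 and -3.05, with differences of -0.58, -1.06 and -0.44. Both probes of *CLDN12* were lower with each drug. Named genes well above background on all 4 arrays had median differences of -0.18, -0.17 and -0.21 so that a small negative difference was common. *CLDN15*, a sodium pore of the small intestine, was at -0.87 with mock and at -1.34, -1.30 and -0.93 with the drugs. Its difference with OR-2100, -0.05, was within the noise between spots of 0.13, and changed its sign to 0.20 under scaling by bright probes.

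*CLDN1*, a sealing claudin without which the skin barrier fails, was at -5.81 with mock and at -4.34, -4.13 and -4.05 with the drugs. It was well above background only with OR-2003 and OR-2100, where the bound was at least 1.11-fold and 1.18-fold higher. No fold is given with DAC, where neither array measured it. With normexp the log2 differences of *CLDN1* with OR-2003 and OR-2100 were 0.024 and 0.021. A probe this dim did not allow a change of *CLDN1* to be measured. In all, 7 of the 10 genes were well above background on all 4 arrays.

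**Figure D2:**
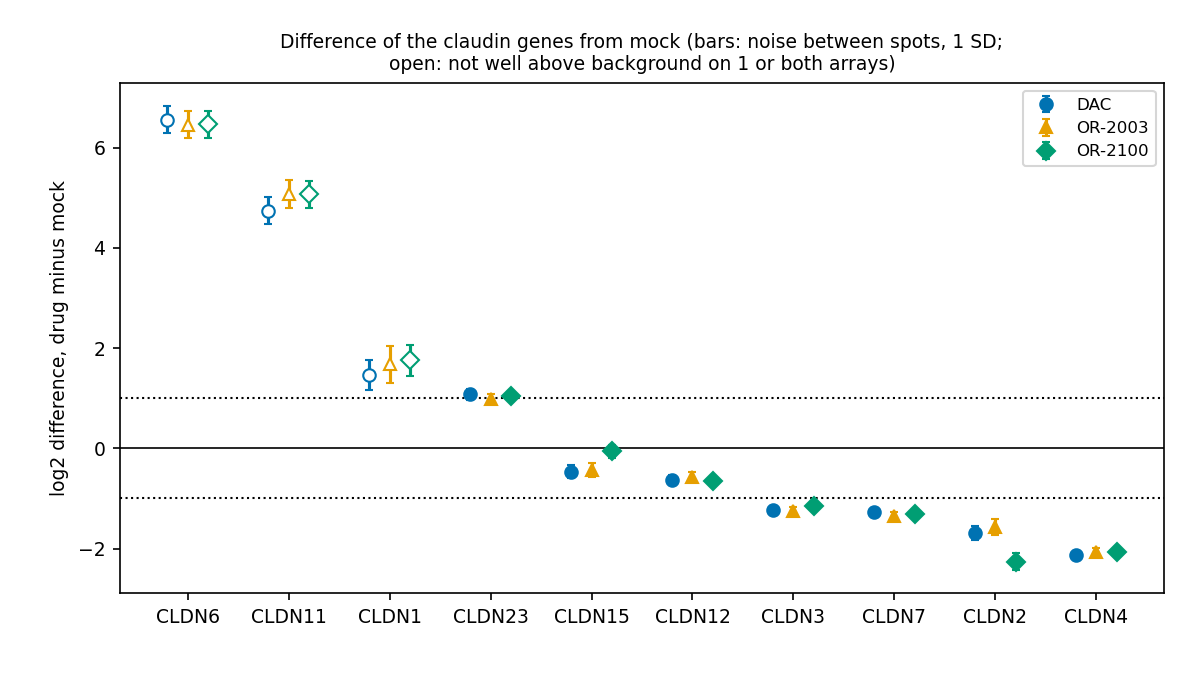
The log2 difference from mock of each claudin gene (brightest probe) is plotted for DAC, OR-2003 and OR-2100, ordered by its mean, with bars of 1 SD of the noise between spots and dotted lines at 2-fold. *CLDN6* and *CLDN11*, drawn open because the mock array did not measure them, lie above 4, and *CLDN3*, *CLDN7*, *CLDN2* and *CLDN4* lie under -1 with every drug.

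The 3 compounds were compared at the same dose and time. For the 10 genes and 3 pairs of drugs, 30 differences were computed, and 0 reached 2-fold. This was rare among all 27921 probes well above background on all arrays as well. Of these probes, 22 reached it between OR-2003 and DAC, 67 between OR-2100 and DAC and 144 between OR-2100 and OR-2003. In 28 of the 30 differences both arrays measured the gene well above background, and 8 of these exceeded 1 SD of the noise between spots. Noise alone takes some differences beyond 1 SD, so that the 8 are not a count of drug effects. The largest were in *CLDN2*, which with OR-2100 was lower by 0.57 than with DAC and by 0.69 than with OR-2003 on the log2 scale (-0.57 and -0.69), beside a noise of 0.19 and 0.20. Of 27921 probes well above background on all arrays, 3.07% and 2.18% differed at least as far in these pairs. With normexp both differences of *CLDN2* shrank, to -0.15 and -0.19. *CLDN15* with OR-2100 was higher than with DAC by 0.41 and than with OR-2003 by 0.37, with a noise of 0.13 and 0.15. Of the same 27921 probes, 7.77% and 10.4% differed at least as far. *CLDN11* had the largest difference between OR-2003 and DAC, higher with OR-2003 by 0.34, with a noise of 0.14. In that pair 8.15% of the probes differed at least as far. *CLDN6* with the drugs differed by 0.10 at most, which was within the noise. With 1 array a drug, the differences between drugs were not tested.

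Other claudins on the array numbered 13, and 0 of them were counted as higher or lower with any drug. Of all named genes, 5.77% to 5.89% were higher and 5.96% to 6.82% lower with a drug. Only *CLDN19* was at -1 or more on any array, and a gene under this level on all arrays could not be counted. Of the 13, 3 were well above background on all arrays. *CLDN24* had the highest mean difference, with -0.31, -0.51 and -0.19 for DAC, OR-2003 and OR-2100, and *CLDN9* the lowest, with -0.36, -0.45 and -0.74. *CLDN24* has a near-identical copy, *CLDN22*, beside it, so that its signal is uncertain. *CLDN9* is the direct neighbour of *CLDN6* on chromosome 16, and *CLDN6* was higher while *CLDN9* was not. *CLDN16*, the neighbour of *CLDN1* on chromosome 3, was well above background only with OR-2003 and OR-2100. It was near background throughout, at -4.67 with mock and at -5.85, -3.69 and -4.20 with the drugs. The bound was 1.51-fold with OR-2003 and 1.06-fold with OR-2100, so that a change of *CLDN16* could not be measured. *CLDN5*, the claudin of the blood-brain barrier, and *CLDN10*, an ion pore of the kidney, were named after their values were seen. *CLDN5* was at -6.06 with mock and at -2.30, -2.56 and -2.60 with the drugs, and was at least 3.97, 3.30 and 3.21-fold higher. *CLDN10* was at -6.17 with mock and at -2.34, -2.06 and -2.44, and was at least 3.86, 4.69 and 3.58-fold higher. Neither reached positive expression on any array.

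The lists of other junction genes were described by their counts and medians beside those of all named genes. Of the latter, 5.27% were higher and 5.21% lower with all 3 drugs, and the median differences were -0.12, -0.093 and -0.23. The 10 claudins had median differences of -0.55, -0.50 and -0.35. Of 13 other membrane proteins of tight junctions, 0 were counted in either direction, and the medians were -0.19, -0.31 and -0.23. *JAM3* and *ILDR2* stayed under -1 on all arrays and so could not be counted. Neither was well above background with mock. With the drugs *JAM3* was at least 4.47, 4.09 and 4.71-fold higher, and *ILDR2* at least 2.67, 2.21 and 1.87-fold. *OCLN*, which encodes occludin, differed by 0.44, 0.49 and 0.54 in its brightest probe and by 0.14, 0.061 and 0.17 in another. *MARVELD3* differed by -0.47, -0.54 and -0.54 in its brightest probe and by -0.98, -1.22 and -0.74 in another. That other probe met the rule for lower with OR-2003 only. Among genes of this list well above background on all arrays, *JAM2*, an adhesion molecule, had the highest mean difference, with 1.65, 1.57 and 1.81. The lowest was that of *F11R*, its epithelial relative, with -0.63, -0.685 and -0.72. *JAM2* was dim, at -3.87 with mock and at -2.22, -2.30 and -2.06 with the drugs. Its other probes were well above background on 1 array at most.

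Of 26 plaque and scaffold proteins, which tie the strands to actin and to polarity complexes, 1 was higher and 3 were lower with all 3 drugs, beside the 5.27% and 5.21% of all named genes, and the medians were -0.20, -0.24 and -0.35. *TJP3*, one of the ZO scaffolds that bind the tails of claudins, was at 0.05 with mock and at -2.57, -2.69 and -2.78 with the drugs, and was 6.17, 6.71 and 7.12-fold lower. *TJP1*, which encodes ZO-1, differed by -0.0019, -0.0078 and -0.15. The polarity genes *PARD6A* and *PATJ* were lower as well, by log2 differences of -1.88, -1.71 and -1.75 and of -1.07, -1.28 and -1.12. *AMOTL2*, an actin-linked junction protein, was higher by 1.63, 1.64 and 1.45. *MPDZ* was not well above background with mock and stayed under -1 on all arrays, so that it could not be counted. With the drugs it was at least 4.09, 3.87 and 3.37-fold higher in its brightest probe and 1.98, 1.41 and 2.31-fold in another.

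Of 20 genes of adherens junctions and desmosomes, 1 was higher and 4 were lower with all 3 drugs, beside the same shares of all named genes, and the medians were -0.60, -0.60 and -0.74. *CDH1*, which encodes E-cadherin, was 2.13, 2.27 and 2.37-fold lower. *CTNND1* (p120-catenin, which holds cadherins at the membrane), *NECTIN2* and *DSC3* were the other lower genes, with mean log2 differences over the drugs of -1.81, -1.45 and -1.21. A dimmer probe of *NECTIN2*, for another transcript, went the other way, with 0.72, 0.61 and 0.82, and one of *CTNND1* differed less, with -0.43, -0.36 and -0.33. *NECTIN4*, an adhesion molecule of epithelial tumors, was at -2.07 with mock and at 1.10, 1.09 and 1.01, with differences of 3.17, 3.17 and 3.08. Of 27 transcription factors and splicing regulators of the epithelial state, 3 were higher and 4 lower with all 3 drugs, beside 5.27% and 5.21% of all named genes, and the medians were 0.31, 0.38 and 0.25. *SNAI1* and *TWIST1*, repressors of epithelial genes, were higher with mean differences of 1.25 and 1.59, and *FOXA2*, not well above background with mock, was higher by at least 3.37, 3.60 and 3.83 on the log2 scale. *GRHL2*, *ELF3*, *ESRP1* and *GRHL1*, which maintain epithelial expression, were lower, with mean differences of -2.46, -1.99, -1.85 and -1.04. The part of these genes in the claudin values was not tested.

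**Figure D3:**
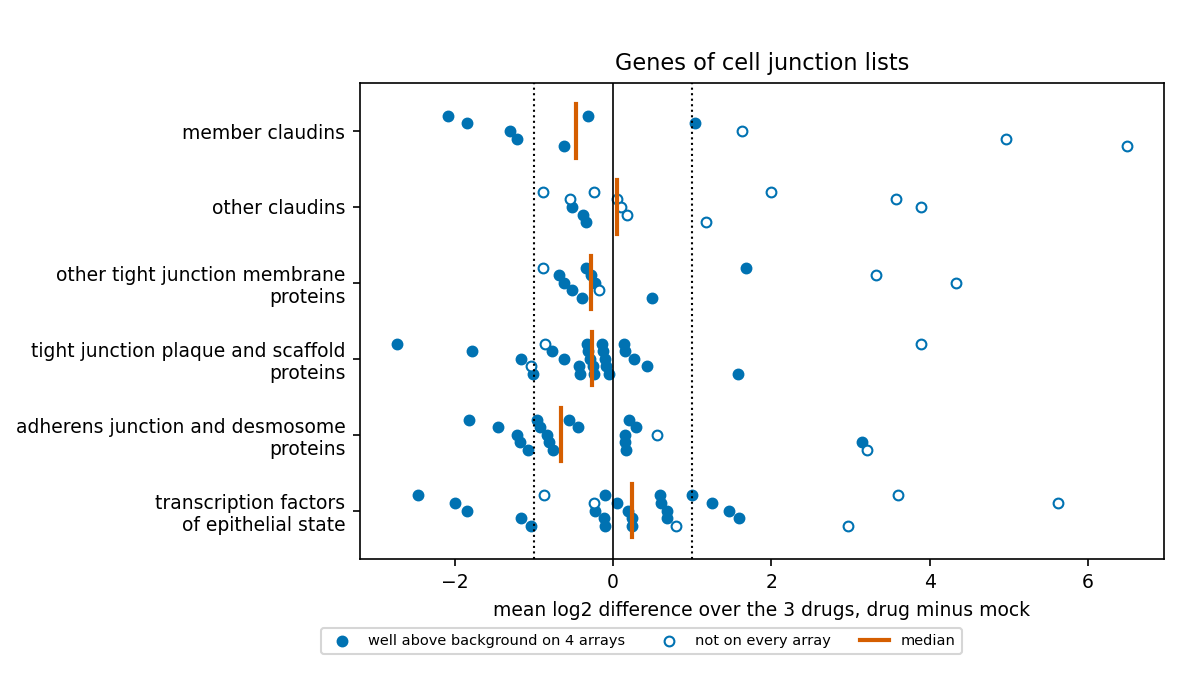
Each point is the mean log2 difference from mock over the 3 drugs of 1 gene (brightest probe), grouped by list, with open points for genes not well above background on every array, a bar at the median of each list and dotted lines at 2-fold. The points at 6.50 and 4.97 in the top row are *CLDN6* and *CLDN11*, and the lowest point of the plaque and scaffold list, at -2.74, is *TJP3*.

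Markers of cell types differed between the arrays as well. Of 10 colon epithelial markers, 7 were well above background with mock and 9 with each drug, and their summed signal was 1306 times the 75th percentile with mock and between 1588 and 1685 times with the drugs. With all 3 drugs 1 of the 10, *LGALS4*, was counted as higher and 2 as lower, beside 5.27% and 5.21% of all named genes. These were *EPCAM*, 2.81, 2.88 and 2.74-fold lower, and *CDH1*. The keratin genes *KRT8*, *KRT18* and *KRT19* were counted in neither direction. *CDH17* was not well above background on any array, and *VIL1* and *KRT20* were not with mock. Of 11 leukocyte, endothelial and fibroblast markers, 6 were well above background with mock and 8, 8 and 9 with the drugs. Their summed signal was 1.51 with mock and between 7.44 and 7.74 with the drugs, and with all 3 drugs 3 of the 11 were counted as higher and 0 as lower, beside 5.27% and 5.21% of all named genes. *CD14* and *VWF* were among the higher ones, although another probe of *VWF* differed by -0.05, -0.01 and -0.12. *COL3A1* and *LUM* were not well above background on any array. All arrays held the same cell line, so that the markers give expression in these cells and no share of other cell types. A summed signal also weighs the brightest probes most. The part of the markers in the claudin values was not tested.

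The genes whose 3 differences from mock lay closest to those of *CLDN23*, by Euclidean distance over 21259 probes of other named genes, were *DNMT3A*, *GPRC5A* and *TBX3*, at distances of 0.022, 0.033 and 0.038. For *CLDN4* they were *HLA-DQB1*, *MALL* and *SAMD12*, at 0.056, 0.058 and 0.072. Each distance was smaller than the noise between spots of a single difference of the same claudin, 0.10 to 0.11 for *CLDN23* and 0.076 to 0.082 for *CLDN4*. With so many probes searched, some were bound to lie this close, so that the order of these genes carries no weight. These patterns rest on 4 arrays, and shared control was not tested.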

How the data were processed

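Total RNA of HML58-3 cells (mock, DAC, OR-2003 and OR-2100, 1 array each) was hybridized to SurePrint G3 Human Gene Expression arrays. The deposited intensity of each spot is the signal of Agilent Feature Extraction 12.1.0.3, background-corrected and not normalized between arrays, and the deposited series table held the same values. Flags of background and outliers, 0 or 1 per the file headers, were used as well.

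From 60901 gene spots an array, those marked as outliers (98, 81, 52 and 82 in the order mock, DAC, OR-2003 and OR-2100) were left out, log2 intensities of the spots of a probe were averaged, and the 75th percentile was set to 0. Probes well above background numbered 31601 to 33282, and the number of arrays limits the precision. A RefSeq gene table named 34892 of 58201 probes, and a gene is given by its brightest probe. The noise between spots is the median SD of the 20 nearest probes in level among those with 10 unmarked spots. No test was run between conditions. The counting was run on simulated data with changes well over the threshold, planted in bright probes only. It therefore did not cover dim probes or changes near the threshold.

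The genes named are all 10 claudins and, of each list, those counted with all 3 drugs (1 is not reported here) or, with fewer than 3, the highest and lowest mean difference among probes well above background. *OCLN*, *MARVELD3*, *PARD3B*, *TJP1*, *CLDN5*, *CLDN10*, *CLDN16*, *CLDN19* and the keratin genes were named after their values were seen. The same holds for *JAM3*, *ILDR2*, *MPDZ*, *CDH17*, *VIL1*, *COL3A1* and *LUM*. The claudins and lists were chosen with earlier results of these data known. Alternatives were the series table, normexp with an offset of 50 on the deposited median intensity, quantile normalization, other scalings, a floor at the background limit, marked spots kept, the mean of probes, a 4-fold threshold and no level threshold. Python 3.11.15, numpy 2.4.6, pandas 2.3.3, R 4.3.3 and limma 3.58.1 were used.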

Additional observations from a re-analysis of the deposited data

How the results depend on the processing

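With 1 array a condition, no replicate could be left out. No paired analysis was possible because the groups share 1 replicate number and nothing was tested. No claudin gene counted as higher or lower changed its sign under any alternative. With a 4-fold threshold, the lower claudin genes numbered 1 with DAC, 1 with OR-2003, 2 with OR-2100 and 1 with all 3, in place of 4 each. When arrays were scaled by their bright probes alone (the 75th percentile of those well above background), those lower with OR-2003, OR-2100 and all 3 drugs numbered 2, 2 and 2, and those lower with DAC 3. In both cases this follows from the construction, a stricter fold, or a scaling that lowers all levels and moves all differences up. The other counts stayed within 1.5 times, but the genes changed. *CLDN1* entered the higher genes with median scaling and without the level threshold, *CLDN23* left them with median scaling and normexp, and entered them with OR-2003 under quantile normalization and scaling by bright probes, under which *CLDN11* left them. *CLDN3* was not counted as lower with OR-2100 under quantile normalization. The median difference of all named genes moved from -0.12, -0.093 and -0.23 to 0.11, 0.20 and 0.026 under the scaling by bright probes, and to -0.23, -0.32 and -0.32 with median scaling. The series table holds identical values and no claudin spot was marked, so that neither alternative tests the counts. Signal near background limits *CLDN1*, *CLDN6* and *CLDN11*, whose differences were much smaller under normexp, where the correction, the input signal and an offset of 50 changed together. Their separate parts were not tested.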

Other observations

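The array design names 13 probes for long noncoding RNAs after claudin genes, which are not claudin transcripts. Of these, 3 were well above background on all arrays and 0 were counted as higher or lower with any drug. The probe lnc-CLDN6-2:1 was at 0.38 with mock and at 0.19, 0.51 and 0.52 in the order DAC, OR-2003, OR-2100. Its log2 differences from mock were -0.19, 0.13 and 0.14, beside 6.56, 6.46 and 6.47 for *CLDN6*. The probe lnc-CLDN5-1:2 was at 0.017 with mock and at -0.56, -0.22 and -0.29.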
